A study of Mus musculus with 59 samples.

Results

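Polycomb repressive complex 2 (PRC2) was followed at the RNA level through the 9 genes that encode its core and accessory subunits, Ezh1, Ezh2, Eed, Suz12, Jarid2, Mtf2, Phf1, Phf19 and Aebp2. They were chosen by gene symbol, with earlier results of these data known, and are 9 of the 24391 genes listed for each library. All 9 were above 0 in each of the 59 libraries, between 1.32 and 397 TPM, so none was lost to a filter on low values. TPM, the unit of all levels here, counts reads per length of gene and scales each library to the same total, so levels of different genes can be set side by side.

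PRC2 places methyl groups on lysine residues of histone H3 to form H3K27me3, a mark of silenced developmental genes. EZH1 and EZH2 are its alternative catalytic subunits, and EED, which reads the mark, and SUZ12, the scaffold, are needed for activity. The core joins either a Polycomb-like protein (MTF2, PHF1 or PHF19), which binds CpG-rich DNA and makes the form called PRC2.1, or JARID2 and AEBP2, which make PRC2.2 and recognise H2AK119ub1, the histone mark laid down by PRC1.

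The libraries were made from mouse embryonic stem cells (ESCs) and from embryoid bodies (EBs), the aggregates that form when ESCs are cultured for 2 days on a low-attachment dish without LIF and the 3 inhibitors SU5402, PD184352 and CHIR99021. ESCs were grown with LIF and the inhibitors on mouse embryonic fibroblasts (MEFs). All lines carried ERT2-Cre, a recombinase switched on by 4-hydroxytamoxifen (4-OHT), and the control and mutant of a line were the same cells without and with 4-OHT. In the Pcgf1 line the control was Pcgf1 f/f and the mutant Pcgf1 delta/delta, with 4 control ESC libraries and 5 in each other group. The Ring1-pm line carried Ring1a pm/pm in control and mutant alike, and 4-OHT made Ring1b pm/pm in the mutant. It had 2 libraries per group, as had the Ring1A/B line (Ring1a -/- throughout, Ring1b f/f or delta/delta), the Pcgf2/4 line (Pcgf2 and Pcgf4), the Pcgf3/5 line (Pcgf3 and Pcgf5) and the Pcgf6 line, each with f/f controls and delta/delta mutants. The ESCs of the Pcgf1 line were derived from blastocysts, and control cells received no 4-OHT, so the effects of the drug and of the deletion cannot be told apart.

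Nothing in the labels says that replicates came from separate cultures, so p-values measure the spread between these libraries, which may be technical. Read depth is unknown, since the files hold TPM only, and no counting interval could be given. The Pcgf1 transcript stood at 7.30 to 16.6 TPM in controls and 0.629 to 2.77 TPM in mutants of its line. Klf4, a naive ESC gene, ran from 655 to 1270.1 TPM over control ESCs against 3.54 to 12.4 TPM over control EBs, and Fgf5, an epiblast gene, from 0 to 0.292 and 25.4 to 68.5 TPM. Of the 32 libraries of the other 4 lines (Ring1A/B and all Pcgf lines but Pcgf1), 21 were deposited under a name that gives another condition than the label, against 0 of 27 in the Pcgf1 and Ring1-pm lines. The comparisons below therefore rest on the Pcgf1 and Ring1-pm lines. Replicate numbers in the Pcgf1 line follow library series by the identifiers in the headers, with replicate 1 in one series, replicates 2 and 3 in the next and replicates 4 and 5 in the last. Same-numbered libraries deviated together, and so did different-numbered libraries of one series.

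Sequences just before the RefSeq transcription starts (GRCm38.p6 table, each found once in mm9) are shown for the catalytic pair and for Eed, Suz12 and Mtf2, whose levels differed most clearly between stages. They run 5′ to 3′ on the strand of the gene, with each CG dinucleotide in capitals. The Ezh2 stretch is shorter because the rest of its window lies in a UTR of the GENCODE annotation.
Ezh2 (minus strand, chr6:47545030-47545182): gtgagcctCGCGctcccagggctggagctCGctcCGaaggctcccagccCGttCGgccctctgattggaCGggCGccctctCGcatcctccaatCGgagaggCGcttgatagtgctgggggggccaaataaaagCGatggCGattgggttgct
Ezh1 (minus strand, chr11:101087778-101088027): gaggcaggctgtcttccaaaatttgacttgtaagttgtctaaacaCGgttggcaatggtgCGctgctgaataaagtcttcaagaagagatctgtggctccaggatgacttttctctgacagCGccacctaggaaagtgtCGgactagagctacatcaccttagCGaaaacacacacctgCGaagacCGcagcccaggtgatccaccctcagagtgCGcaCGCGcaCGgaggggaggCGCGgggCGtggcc
Eed (minus strand, chr7:97129487-97129736): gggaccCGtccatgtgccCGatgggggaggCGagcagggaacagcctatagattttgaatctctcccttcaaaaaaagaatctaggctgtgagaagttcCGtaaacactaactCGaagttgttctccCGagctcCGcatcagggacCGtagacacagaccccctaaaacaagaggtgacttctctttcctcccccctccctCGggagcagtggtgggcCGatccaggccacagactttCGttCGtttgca
Suz12 (plus strand, chr11:79806358-79806607): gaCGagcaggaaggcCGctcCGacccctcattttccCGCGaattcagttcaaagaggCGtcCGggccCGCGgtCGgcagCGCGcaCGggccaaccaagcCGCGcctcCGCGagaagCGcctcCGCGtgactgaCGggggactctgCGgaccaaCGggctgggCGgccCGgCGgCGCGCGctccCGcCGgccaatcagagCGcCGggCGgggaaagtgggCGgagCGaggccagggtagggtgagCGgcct
Mtf2 (plus strand, chr5:108494443-108494692): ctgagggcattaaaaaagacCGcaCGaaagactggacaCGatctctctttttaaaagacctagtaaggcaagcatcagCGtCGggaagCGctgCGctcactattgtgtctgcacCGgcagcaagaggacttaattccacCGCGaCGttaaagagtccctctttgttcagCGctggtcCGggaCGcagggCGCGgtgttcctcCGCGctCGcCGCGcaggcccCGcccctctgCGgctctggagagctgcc
The 250 bases before the start held 23 CG dinucleotides in Ezh2, 14 in Ezh1, 12 in Eed, 37 in Suz12 and 23 in the first of 2 windows of Mtf2, against a median of 6 over 32851 windows. The other window of Mtf2 held 2. The windows of Aebp2 held 1, 14 and 3, those of Jarid2 23 and 22, that of Phf1 23 and that of Phf19 31. Over all windows the 90th percentile was 25. The letters TTTNNCGC, which loosely cover binding sites of the E2F cell-cycle factors, were searched on both strands and were found in the windows of 2 members, Suz12 (219 bases before the start) and Phf19 (208 and 198 bases before it), and in 4.28% of all windows. All 9 members had at least 1 window in the table and 13 windows in all.

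In control ESCs of the Pcgf1 line the level order was Suz12, Mtf2, Jarid2, Eed, Ezh2, Aebp2, Ezh1, Phf1 and Phf19, from 277 ± 60.7 TPM (mean ± SD, n = 4) for Suz12 to 9.55 ± 4.00 TPM for Phf19. The 5 genes at the top overlapped their neighbours over libraries, all stood clear of Aebp2, and Ezh1 stood clear of Phf1. Among the Polycomb-like genes, Mtf2 made up 88.6% to 94.6% of the summed TPM in control ESCs of this line. In control EBs the order began with Jarid2, Ezh2, Suz12, Mtf2 and Eed. There Suz12 did not overlap with Mtf2, nor Eed with Ezh1, while Ezh1 and Aebp2 overlapped.

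**Figure D1:**
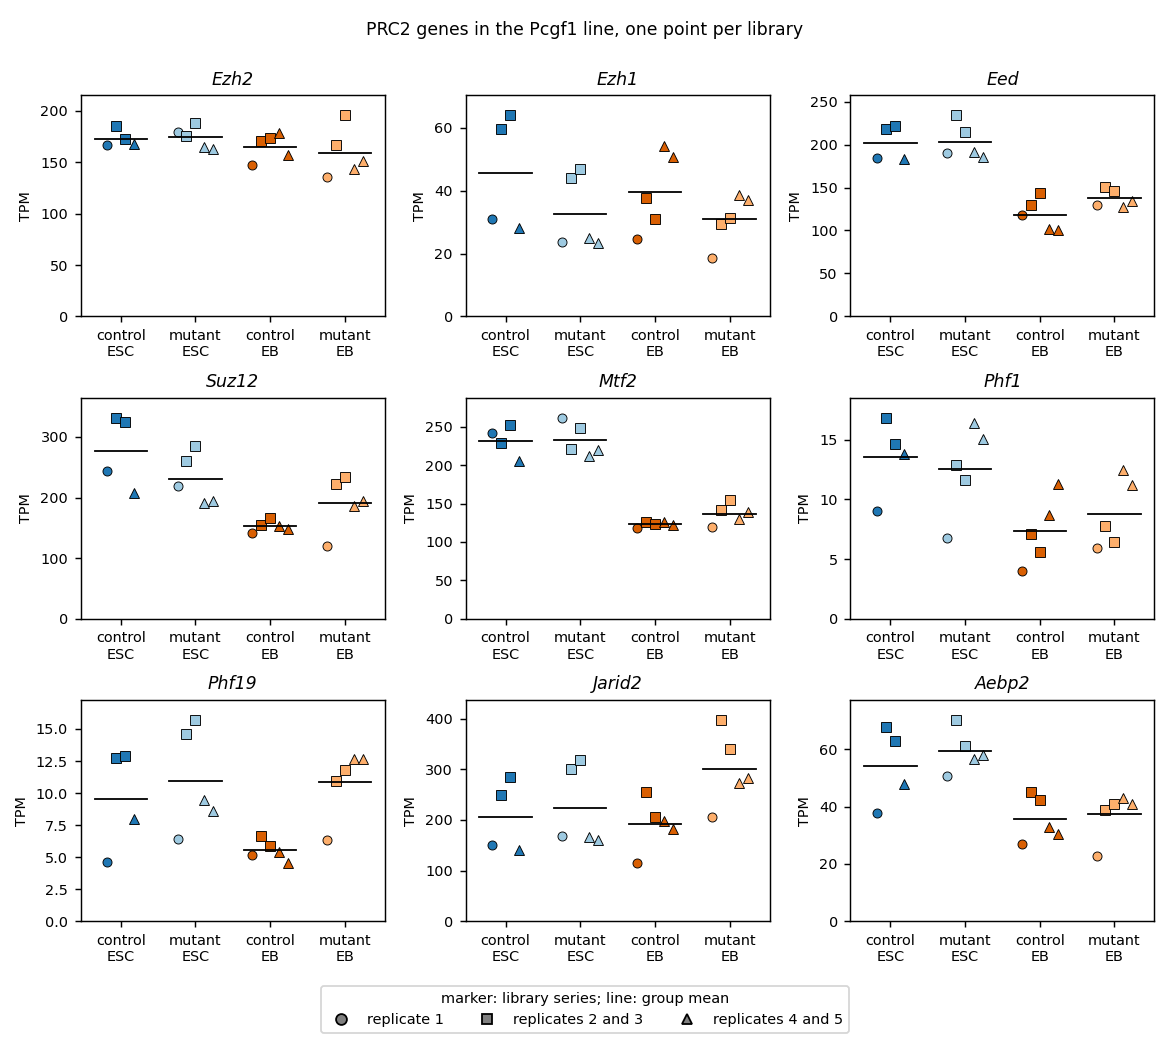
TPM of the 9 PRC2 genes in the 19 libraries of the Pcgf1 line, by group on the x axis, with 1 point per library, marker shape for the library series and a line at the group mean. Eed, Suz12 and Mtf2 stand lower in every control EB than in every control ESC library, while Ezh2 stays between 135 and 196 TPM in all 19.

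Between control ESCs and control EBs of the Pcgf1 line, 5 of the 9 members fell and none rose: Mtf2, Suz12, Eed, Phf1 and Aebp2. Of the 20594 genes tested, 24.9% were called in either direction and 13.4% were called lower. Ezh2, Ezh1, Jarid2 and Phf19 did not pass the test. With replicate number as a block, 6 members were lower, Phf19 being added, where 23.3% of all genes were lower. All calls are limma tests at an adjusted p under 0.05, and changes are given on the log2(TPM + 0.1) scale, which understates changes of genes with low levels.

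Ezh2, the catalytic subunit typical of dividing cells, was at 167, 185, 173 and 168 TPM in control ESCs (replicates 1 to 4) and 147, 171, 173, 178 and 157 TPM in control EBs (replicates 1 to 5). The groups overlapped, and the EB minus ESC difference was -0.07 ± 0.11 (log2, SE; limma adjusted p = 0.712). In mutants Ezh2 was at 179, 176, 189, 165 and 163 in ESCs against 135, 167, 196, 144 and 151 TPM in EBs. The mutant stage difference was -0.15 ± 0.11 (adjusted p = 0.402), again with overlap.

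Ezh1, the alternative catalytic subunit, was lower and less even. It stood at 31.0, 59.6, 64.0 and 28.1 in control ESCs against 24.7, 37.8, 31.0, 54.3 and 50.7 TPM in control EBs, so that each group spread over about the whole range of the other. Over all libraries the stage difference was -0.17 ± 0.32 (adjusted p = 0.765). Within replicate numbers the direction was not shared: the log2 differences for replicates 1 to 4 were -0.32, -0.66, -1.04 and 0.95, negative in the first pair of library series and positive in the last. In mutants, with 23.5, 44.2, 46.8, 24.8 and 23.3 in ESCs against 18.5, 29.4, 31.5, 38.6 and 37.2 TPM in EBs, the differences of replicates 1 to 5 were -0.34, -0.59, -0.57, 0.64 and 0.67. They turned from negative to positive at the same library series as in controls. The pooled mutant stage difference of -0.04 ± 0.30 (adjusted p = 0.999) thus averages series of opposite sign, and why the series differ was not tested.

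The Ezh2 to Ezh1 ratio of TPM followed Ezh1. In control ESCs it was 5.38, 3.10, 2.71 and 5.97, and in control EBs 5.94, 4.53, 5.59, 3.28 and 3.09. The mean log2 ratio was 2.02 in ESCs and 2.11 in EBs, a difference of 0.10 ± 0.34 (SE; exact permutation test, two-sided, p = 0.738, adjusted over 4 comparisons 0.738; the smallest p possible was 0.00794). Of 4 same-numbered pairs 3 were higher in EBs and replicate 4 was lower. In mutants the ratio was 7.62, 3.98, 4.03, 6.64 and 7.01 in ESCs and 7.30, 5.69, 6.22, 3.72 and 4.07 in EBs. That stage difference was -0.11 ± 0.27 in log2 (exact permutation p = 0.619, adjusted 0.738), with 2 of 5 pairs higher in EBs. A shift of the ratio with stage was not detectable against this spread.

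Between control and mutant the ratio moved one way within every pair but not beyond the spread over all libraries. It was higher in the mutant in 4 of 4 ESC pairs and 5 of 5 EB pairs. Pairs that share a library series, such as those of replicates 2 and 3, may not be independent. The mean log2 differences were 0.48 ± 0.35 in ESCs (exact permutation p = 0.206, adjusted 0.603) and 0.27 ± 0.27 in EBs (exact permutation p = 0.302, adjusted 0.603). Within pairs they were 0.40 with an SD of 0.19 and 0.27 with an SD of 0.10, where an exact sign-flip permutation gave p = 0.125 and p = 0.0625, each the smallest value that number of pairs allows, and 0.25 for both once adjusted. Ezh1 itself was lower in the mutant in 4 of 4 ESC pairs and 4 of 5 EB pairs, with mean differences of -0.47 ± 0.32 (limma adjusted p = 0.798) and -0.34 ± 0.30 (adjusted p = 0.778). Ezh2 differed by 0.01 ± 0.11 in ESCs (adjusted p = 1).

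**Figure D2:**
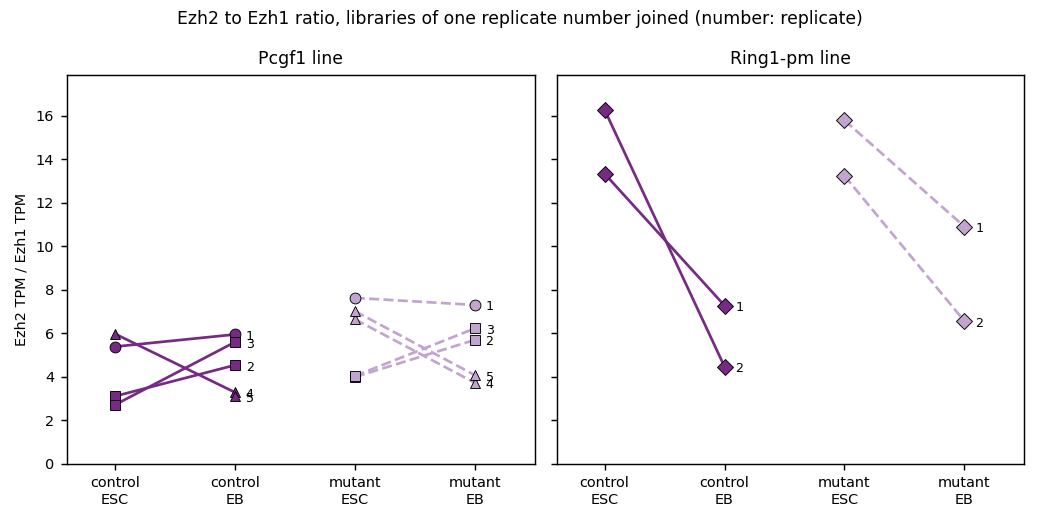
Ratio of Ezh2 TPM to Ezh1 TPM on the y axis, with libraries of one replicate number joined from ESC to EB (solid, control; dashed, mutant) and marker shape for the library series. In the Pcgf1 line the lines cross, replicates 2 and 3 going up and replicate 4 going down, and in the Ring1-pm line all 4 lines go down, from 13.2 to 16.3 in ESCs to 4.46 to 10.9 in EBs.

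Of the other core subunits, Eed was at 184, 218, 222 and 184 in control ESCs against 118, 129, 144, 101 and 100.1 TPM in control EBs. The groups did not overlap, and Eed fell by 0.78 ± 0.13 on the log2 scale (limma adjusted p = 0.000159). In mutants it was at 191, 234, 215, 191 and 185 in ESCs against 129.9, 151, 146, 127 and 135 TPM in EBs, again without overlap, and fell by 0.56 ± 0.12 (adjusted p = 0.00239). It was lower in EBs in all 9 same-numbered pairs of both genotypes.

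Suz12 was at 244, 331, 324 and 208 in control ESCs against 141, 155, 167, 152 and 147 TPM in control EBs. Every EB library was under every ESC library, and Suz12 fell by 0.83 ± 0.19 (limma adjusted p = 0.00301). In mutants, with 219, 259.9, 286, 191 and 194 in ESCs against 120.3, 222, 234, 186 and 194 TPM in EBs, the groups overlapped. The difference there was -0.28 ± 0.18 (adjusted p = 0.329, and 0.0671 with the replicate block). The test of whether the mutant effect differed between EBs and ESCs gave 0.55 ± 0.26 for Suz12 (unadjusted p = 0.0473, adjusted p = 0.856), so a different stage change in the mutant was not established.

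Among the subunits of PRC2.1, Mtf2 had the most even fall. It was at 241, 229, 253 and 205 in control ESCs against 119, 126, 124, 126 and 122 TPM in control EBs. The groups lay far apart, with EB means of 123 ± 3.27 TPM (SD, n = 5) against 232 ± 20.5 TPM (n = 4) in ESCs, and the log2 fall was 0.91 ± 0.10 (limma adjusted p = 5.06e-06). In mutants the groups did not overlap either, at 261, 221, 248, 212 and 220.1 in ESCs against 119, 141, 154, 129 and 139 TPM in EBs, a fall of 0.77 ± 0.10 (adjusted p = 1.92e-05).

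Phf1 stood far below Mtf2, at 9.05, 16.8, 14.6 and 13.8 in control ESCs against 4.00, 7.11, 5.56, 8.65 and 11.3 TPM in control EBs. The groups overlapped through replicate 1 of the ESCs, and the fall of 0.93 ± 0.32 passed narrowly (limma adjusted p = 0.0401). The call was lost without control EB replicate 1, 2 or 3 or control ESC replicate 2, 3 or 4, with an adjusted p between 0.0616 and 0.122. In mutants Phf1 differed by -0.51 ± 0.30 (adjusted p = 0.286) and was called lower with the replicate block (adjusted p = 0.0117).

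Phf19 was at 4.60, 12.7, 12.9 and 8.0 in control ESCs against 5.16, 6.66, 5.91, 5.40 and 4.55 TPM in control EBs. Replicate 1 of the ESCs was as low as the EBs, and the difference of -0.67 ± 0.32 did not pass (limma adjusted p = 0.137). With the replicate block it was -0.65 ± 0.20 and passed (adjusted p = 0.0166). In mutants, at 6.43, 14.6, 15.7, 9.45 and 8.56 in ESCs against 6.35, 10.9, 11.8, 12.6 and 12.7 TPM in EBs, the difference was 0.03 ± 0.30 (adjusted p = 1).

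Of the PRC2.2 subunits, Jarid2 was at 151, 249, 285 and 139.9 in control ESCs against 116, 255, 207, 199 and 183 TPM in control EBs. These overlapped throughout, with a difference of -0.08 ± 0.28 (limma adjusted p = 0.888). In mutants it was at 169, 301, 318, 167 and 161 in ESCs against 206, 397, 341, 273 and 282 TPM in EBs, higher in EBs in 5 of 5 pairs. The mutant difference of 0.46 ± 0.27 did not pass (adjusted p = 0.279) but did with the replicate block (adjusted p = 0.00900).

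Aebp2 was at 37.8, 67.6, 63.0 and 47.7 in control ESCs against 26.8, 44.9, 42.4, 33.1 and 30.5 TPM in control EBs. The groups overlapped, with replicate 1 the lowest at both stages, and the fall of 0.59 ± 0.21 passed narrowly (limma adjusted p = 0.0465; 0.000701 with the replicate block). Without control EB replicate 1, 4 or 5 or control ESC replicate 2, 3 or 4 the call was lost (adjusted p 0.0596 to 0.159). In a fit of only the control groups the calls of Aebp2 and Phf1 were lost too (limma adjusted p = 0.101 and 0.0777). In mutants, at 50.6, 70.1, 61.3, 56.5 and 58.1 in ESCs against 22.8, 38.7, 40.9, 43.2 and 40.8 TPM in EBs, the groups did not overlap and Aebp2 fell by 0.70 ± 0.20 (adjusted p = 0.0189; 0.0513 without mutant ESC replicate 2).

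In all, 3 members (Mtf2, Eed and Aebp2) were called lower in mutant EBs than in mutant ESCs and none higher, where 18.3% of all genes were called in either direction and 10.2% were lower. With the replicate block 4 members were lower (Phf1 being added) against 20% of all genes, and 1, Jarid2, was higher against 16.8%. The median stage difference of the members was -0.67 in controls and -0.28 in mutants, where the median over all genes was close to 0. Passing in controls and not in mutants is no test of a difference: none of the 9 was called for the mutant effect in EBs against that in ESCs (0.00486% of genes called by limma, 1 member and 1195 genes at an unadjusted p under 0.05). With the replicate block none was called either, against 1.62% of genes, and 5 members, Suz12, Jarid2, Phf1, Phf19 and Eed, and 3242 genes had an unadjusted p under 0.05.

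**Figure D3:**
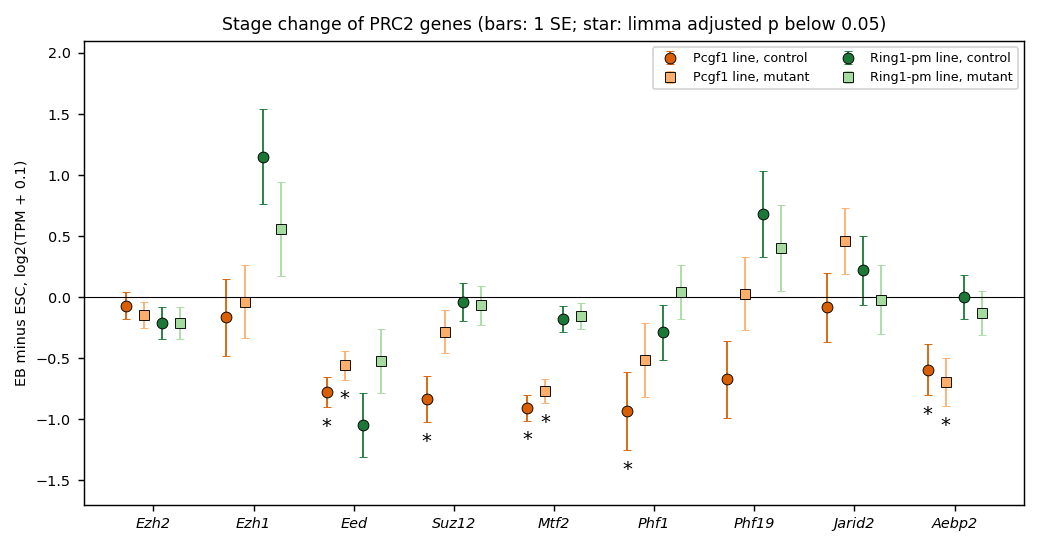
EB minus ESC difference of each PRC2 gene on the log2(TPM + 0.1) scale, with bars of 1 SE and a star for a limma adjusted p below 0.05. In the Pcgf1 line Eed, Mtf2 and Aebp2 carry stars in control and mutant and Suz12 and Phf1 in control only, a pattern whose difference was not called, and no gene carries a star in the Ring1-pm line.

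As a description with no test, the summed TPM of the PRC2.2 subunits Jarid2 and Aebp2 was set against that of Mtf2, Phf1 and Phf19 in each library of the Pcgf1 line. This ratio was 0.742, 1.22, 1.24 and 0.828 in control ESCs and 1.12, 2.14, 1.84, 1.65 and 1.55 in control EBs. In mutants it was 0.800, 1.49, 1.38, 0.941 and 0.900 in ESCs and 1.75, 2.72, 2.22, 2.05 and 1.99 in EBs. It was higher in EBs in each of the 9 same-numbered pairs, and Mtf2 was lower in EBs in each of them. Jarid2 was higher in EBs in 5 of 5 mutant pairs, where it passed with the replicate block only, and in 2 of 4 control pairs. Within each number the ratio was also higher in the mutant than in the control, at both stages.

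**Figure D4:**
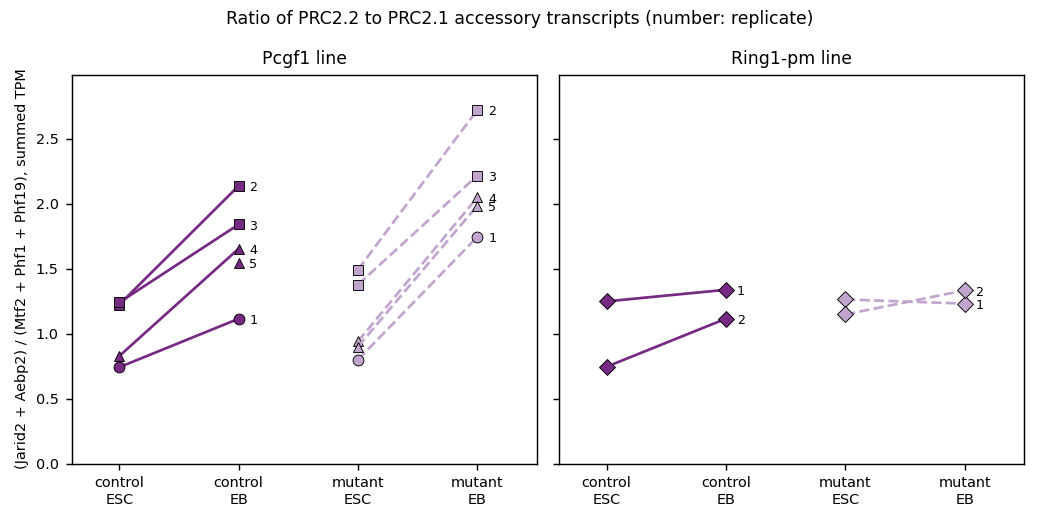
Summed TPM of Jarid2 and Aebp2 divided by that of Mtf2, Phf1 and Phf19 on the y axis, with libraries of one replicate number joined from ESC to EB (solid, control; dashed, mutant). All joined lines of the Pcgf1 line rise, to 1.12 to 2.14 in control EBs and 1.75 to 2.72 in mutant EBs. The Ring1-pm libraries lie between 0.746 and 1.34. Their control lines and mutant replicate 2 rise too, and mutant replicate 1 falls, from 1.26 to 1.23.

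Markers of the MEF feeder cells also differed by stage. A list of 10 fibroblast genes reached a sum of 228 to 298 TPM over control ESCs but 33.2 to 66.4 TPM over control EBs, and of 186 to 245 TPM and 16.7 to 36.1 TPM in mutants. Of the list 5 genes fell and 2 rose in controls and 6 fell in mutants, and Col1a1, its defining gene, stayed above 0 in every library of this line, at 3.49 TPM or more. A list of 10 proliferation genes had sums of 2832 to 3516 TPM over control ESCs against 2894 to 3713 TPM over control EBs, with 1 gene higher and none lower. The part of MEF RNA in the members' differences was not tested, and in bulk RNA fewer cells of a type and less RNA per cell cannot be told apart.

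Between mutant and control ESCs of the Pcgf1 line none of the 9 members passed the test, where limma called 0.641% of all genes. No member had an unadjusted p under 0.05, where 8.63% of all genes had. The replicate block called none either, against 5.31% of all genes. In EBs none was called against 1.95% of genes. There 2 members, Phf19 and Jarid2, had an unadjusted p under 0.05, as had 12% of all genes. With the replicate block 3 members, Phf19, Jarid2 and Eed, were higher in mutant EBs, where 4.83% of all genes were called higher.

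Phf19 was higher in mutant than control EBs in 5 of 5 pairs. The levels given above, 4.55 to 6.66 TPM in control and 6.35 to 12.7 TPM in mutant EBs, overlap through replicate 1 of the mutant, which was at 6.35 TPM while the other mutant EBs were at 10.9 TPM or more. The difference was 0.93 ± 0.30 (limma adjusted p = 0.134 without and 0.00536 with the block). Median-of-ratios scaling and quantile normalization without the block also called it (adjusted p = 0.0286 and 0.0157).

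Jarid2 was higher in mutant EBs in 5 of 5 pairs too, by 0.83, 0.64, 0.72, 0.46 and 0.63 for replicates 1 to 5 on the log2 scale. The groups overlapped, with replicate 1 the lowest in both. The mean difference of 0.66 ± 0.27 had an adjusted p of 0.297 by limma without the block and 0.00372 with it. Eed differed by 0.23 ± 0.12, at an adjusted p of 0.487 and 0.0209, with every mutant EB above its same-numbered control. Marker genes differed too: Klf4 was at 4.85 to 74.6 TPM in mutant EBs against 3.54 to 12.4 TPM in control EBs, and 1 of 9 naive ESC genes was called higher, with a median log2 difference of 1.16 over the list. None of 8 EB or epiblast genes was called, but their median was -1.09, and they summed to 369.7 to 1948 TPM in mutant EBs against 1125 to 3109 TPM in control EBs. Of 10 fibroblast genes 1 was called lower, with a median of -0.56, against a median of -0.03 over all genes. The part of these lists in the members' values was not tested.

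In the Ring1-pm line no member passed the test without the replicate block in any comparison, and each group held 2 libraries. Limma called 4.73% of 20279 genes between control EBs and ESCs, 0.133% between mutant EBs and ESCs, 2.54% between mutant and control ESCs, 4.53% between mutant and control EBs and 0.00986% for the difference of the mutant effects. At an unadjusted p under 0.05 there were 2 members and 4123 genes in the control stage comparison and 1 member and 4188 genes between mutant and control EBs. The other 3 comparisons had 0 members, with 1974, 3388 and 1076 genes. Between mutant and control the median over all genes was 0.12 in ESCs and 0.10 in EBs, so differences there are read against those values.

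Eed was again lower in EBs in each pair. It was at 282 and 202 in control ESCs against 138 and 96.5 TPM in control EBs, without overlap, a difference of -1.05 ± 0.26 (limma adjusted p = 0.0722). With replicate number as a block Eed was called here, as were 2018 of 20279 genes, though no label says that these numbers pair the libraries. Mutant ESCs had 244 and 172 TPM and mutant EBs 163 and 126 TPM, a difference of -0.52 ± 0.26 (adjusted p = 0.552).

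Mtf2, which fell in the Pcgf1 line, was at 184 and 184 in control ESCs against 166 and 159 TPM in control EBs of the Ring1-pm line. The groups did not overlap, but the difference was -0.18 ± 0.11 (limma adjusted p = 0.414). Mutants had 216 and 192 in ESCs against 178 and 188 TPM in EBs (-0.16 ± 0.11, adjusted p = 0.638). Whether the stage change of Mtf2 differs between the lines was not tested, since each line was fitted on its own.

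Ezh1 was at 16.3 and 14.2 in control ESCs against 24.8 and 46.2 TPM in control EBs, higher in EBs in both pairs by 1.15 ± 0.39 (limma adjusted p = 0.152). Ezh2 was at 217 and 231 TPM in control ESCs and at 181 and 206 TPM in control EBs, lower in EBs by 0.21 ± 0.13 without passing (adjusted p = 0.415). The Ezh2 to Ezh1 ratio accordingly went from 13.3 and 16.3 to 7.27 and 4.46 in controls and from 15.8 and 13.2 to 10.9 and 6.55 in mutants. With 2 libraries per group the smallest p an exact permutation test can give is 0.333, so the ratios stand as values. Their log2 differences were -1.37 ± 0.38 (SE) in controls and -0.77 ± 0.39 in mutants. Phf19, the lowest member, was at 2.17 and 1.84 in control ESCs against 3.98 and 2.68 TPM in control EBs (0.68 ± 0.35, adjusted p = 0.333).

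Between mutant and control of the Ring1-pm line, Mtf2 did not overlap at either stage, with differences of 0.15 ± 0.11 in ESCs (limma adjusted p = 0.573) and 0.17 ± 0.11 in EBs (adjusted p = 0.430). Phf1 did not overlap at either stage, nor did Phf19 and Aebp2 in ESCs, all higher in the mutant. How many of all genes did not overlap between these groups of 2 libraries was not counted. Genes as a whole also leaned higher in the mutant, by the medians given above. These separations are therefore not read as a trait of the members. Jarid2 was at 196 and 108 TPM in control ESCs and 241 and 185 TPM in mutant ESCs, higher in both pairs but with overlap, a difference of 0.54 ± 0.29 (adjusted p = 0.418). In EBs Jarid2 was at 196 and 146 TPM in controls and 200.1 and 217 TPM in mutants, without overlap, a difference of 0.30 ± 0.29 (adjusted p = 0.600). The log2 ratio of Ezh2 to Ezh1 differed by -0.03 ± 0.19 (SE) between mutant and control ESCs, with 1 of 2 pairs higher, and by 0.57 ± 0.51 between mutant and control EBs, with 2 of 2 pairs higher. Phf1 was at 8.88 and 12.4 TPM in control EBs and 15.9 and 16.6 TPM in mutant EBs, a difference of 0.63 ± 0.22 (adjusted p = 0.164). The mutants also differed in stage markers: Klf4 was at 104 to 122 TPM in mutant EBs and 37.2 to 65.1 TPM in control EBs, and Fgf5 at 2.91 to 3.06 and 22.7 to 44.0 TPM. The fibroblast list summed to 72.1 to 73.9 TPM in mutant EBs and 30.9 to 34.2 TPM in control EBs, with 4 genes higher. The part of these in the members' values was not tested.

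Other PRC2-linked genes were set beside the members: Rbbp4 and Rbbp7, histone-binding partners of the core, the PRC2.1 partners E130012A19Rik (Epop), Lcor and Lcorl, the inhibitor AU022751 (Ezhip), and Kdm6a and Kdm6b, which remove the mark. None of the 8 was called by limma in any of the 5 comparisons of either line. Rbbp4, in the Pcgf1 line, was at 276 ± 35.8 TPM (SD, n = 4) in control ESCs, a mean next to that of Suz12, and at 313 ± 25.5 TPM (n = 5) in control EBs, where it was above every member. The median stage difference of the 8 in controls of that line was 0.04, beside -0.67 for the members.

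Over the 19 libraries of the Pcgf1 line, the genes whose log2 levels followed Ezh2 most closely among 13399 others were Tbk1, Trim23, Ckap2l, Pias2 and Rock2 (Pearson r from 0.867 to 0.839). For Ezh1 they were Tbl2, Pif1, Sugp2, Tmtc1 and Rad54b (r from 0.921 to 0.875). These correlations are descriptions over libraries that share series and groups.

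In the 4 lines where names and labels disagree, the stage markers went with the names. Over these 32 libraries Fgf5 was at 0 to 0.816 TPM in the 16 with ESC in the name and 7.53 to 46.3 TPM in the 16 with EB in it, but spanned 0 to 35.2 TPM in those labelled ESC and 0 to 46.3 TPM in those labelled EB. Between labelled groups of the Ring1A/B line limma called 6, 9, 8 and 5 members in the order control stage, mutant stage, mutant against control ESC and mutant against control EB, against 43.2%, 56.5%, 48.8% and 33.3% of genes. By name these compare, in the same order, mutant with control ESCs, mutant with control EBs, control EBs with control ESCs, and mutant EBs with mutant ESCs. No direction is read from these counts. In the Pcgf3/5 line no member was called, against 0.0601%, 0%, 0.0401% and 0.0301% of genes (4, 0, 0 and 0 members and 2531, 315, 282 and 419 genes at an unadjusted p under 0.05). There each labelled mutant group mixed libraries named ESC and EB, which enters the spread shared by all 4 groups. In the Pcgf2/4 and Pcgf6 lines replicate 1 of every labelled group was named ESC and replicate 2 EB. The spread within labelled groups thus spans the named stages, so these fits could not decide whether a member changed. Limma called 0% of genes and no member in any of the 4 comparisons of these lines. No member had an unadjusted p under 0.05 there, where 166 to 286 and 118 to 1126 genes had.

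The members' values are therefore given by library. In the Ring1A/B line Eed was at 174 and 175 TPM where label and name both give control ESC, 99.8 and 99.5 TPM in those labelled mutant ESC (named control EB), 166 and 162 TPM in those labelled control EB (named mutant ESC) and 181 and 173 TPM in those labelled mutant EB (so named). In the same order the Ezh2 to Ezh1 ratio was 5.20 and 5.01, 3.15 and 3.13, 8.53 and 8.14, and 6.69 and 6.31. Jarid2 stood highest in the libraries labelled and named mutant EB, at 369 and 365 TPM against 149 to 172 TPM in the other 6.

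In the Pcgf3/5 line Eed was at 186 to 211 TPM in the 4 libraries named ESC and 109 to 116 TPM in the 4 named EB, and Ezh1 at 19.6 to 21.1 TPM and 53.4 to 62.2 TPM. By label each of these genes spanned nearly the whole range within the mutant ESC group, as replicate 1 had 211 TPM of Eed and replicate 2 116 TPM. In the Pcgf2/4 line Eed was at 279.7 to 347 TPM in libraries named ESC and 238 to 275 TPM in those named EB, and in the Pcgf6 line at 259 to 285 TPM and 201 to 234 TPM. The stage by name and by label thus give different accounts of the same values. Over the 32 libraries Fgf5 did not overlap between the named stages, and Klf4 did not either (120 to 766 TPM against 3.25 to 118 TPM). By label each of these markers overlapped between stages. Both markers thus separated the stages by name, and not by label, in each of the 4 lines. Which of the 2 is right for control and mutant state was not tested.

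**Figure D5:**
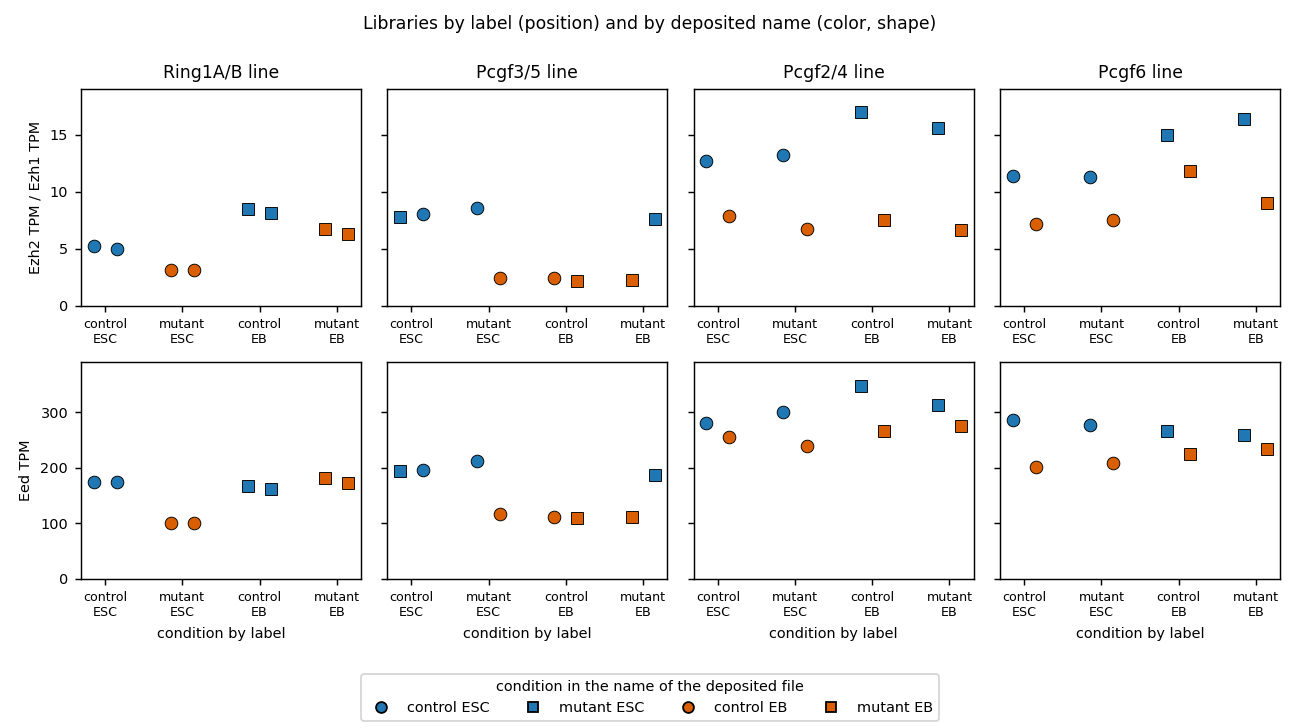
Ezh2 to Ezh1 ratio (upper row) and Eed TPM (lower row) in the 32 libraries of the 4 lines with conflicting names, placed by label on the x axis and marked by the condition in the deposited name. In the Pcgf3/5 line ratios of 7.61 to 8.60 belong to the libraries named ESC and ratios of 2.15 to 2.47 to those named EB, whichever group their label gives.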

How the data were processed

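RNA-seq was done on 59 libraries of 6 mouse lines. The authors deposited TPM per gene, with no counts. Per the labels, reads were aligned with STAR 2.5.2b to mm9 and DESeq2 was used by the authors. The step from reads to TPM is not given in the sources used here, so the strand setting and the handling of shared reads are unknown.

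Groups were taken from the sample titles, never from file names or values. One Pcgf1 library is replicate 4 by title and 5 by another label, and the title was used. Each line was fitted on its own with limma 3.58.1 in R 4.3.3 on log2(TPM + 0.1), over all 4 groups and all genes above 0 in at least 1 library, with an empirical Bayes trend and Benjamini-Hochberg adjustment at 0.05. The code was tested on simulated data. Ezh2 to Ezh1 ratios were compared by exact permutation in Python 3.11.15 with numpy 2.4.6 and pandas 2.3.3.

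The members, the marker lists and the other PRC2-linked genes were chosen with earlier results of these data known. The named genes are all members, those lists, the targeted genes, and for Ezh2 and Ezh1 the 5 genes with the highest Pearson r in the Pcgf1 line. In that line same-numbered libraries of compared groups deviated together (r of 0.317 to 0.653 in every pair), so blocked values stand beside results they change. Different-numbered libraries of one series did so too (r of 0.246 to 0.621), so the correlation cannot tell pairing by number from a shared series. Pair counts, sign-flip tests and the block treat replicates of one series as separate pairs. The pairing comes from the replicate numbers in the titles and this correlation. Alternatives were median-of-ratios scaling, quantile normalization, a pseudocount of 1, a filter at a mean TPM of 1, a fit restricted to the compared groups, the replicate block and leaving out each library. A library series term and a crossed pairing of the Pcgf3/5 line were added after seeing the data. Depth is unknown, so precision rests on the number of libraries. No 2 libraries had identical values.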

Additional observations from a re-analysis of the deposited data

Results flagged for a closer look

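Replicate 1 of the Pcgf1 mutant EBs stood apart from the other 4 in 2 members. Phf19 was at 6.35 TPM in it and at 10.9 TPM or more in the others, and Aebp2 was at 22.8 TPM against 38.7 TPM or more. This library was the only one of its series in the group. By the levels given above, replicate 1 was also the lowest for both genes in control and mutant ESCs, and for Aebp2 in control EBs. In this line 40 groups of 4 or 5 libraries were examined in this way, 36 for the members and 4 for the Ezh2 to Ezh1 ratio, of which chance gives such a gap in about 5%, and 2 had one.

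The sign of the Phf1 difference between mutant EBs and mutant ESCs was not the same in the 2 lines, although it passed limma's test without the block in neither. The Pcgf1 line had it higher in EBs in 0 of 5 pairs, with log2 differences from -0.85 to -0.18, whereas in the Ring1-pm line it was higher in 2 of 2 pairs, by 0.02 and 0.06. The difference between the lines was not tested.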

How the results depend on the processing

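Over planned and added settings other than left-out libraries, 150 of 161 counts of called members stayed within 1.5 times, as did 138 of 145 with a library left out. A count of 0 that stayed 0 was scored as unchanged. With a library left out this held for every count of the Ring1-pm, Pcgf2/4, Pcgf3/5 and Pcgf6 lines. These totals therefore say little about members that were called. The control stage count of the Pcgf1 line, 5, became 3 with only the groups compared and ranged from 3 to 6 with a library left out (3 without control EB replicate 1 or control ESC replicate 2, 3 or 4). The mutant stage count of 3 became 5 with the replicate block and 5 with library series as a term. The count between mutant and control EBs, 0, became 1 with median-of-ratios scaling, 1 with quantile normalization, 3 with the replicate block and 3 with the series term. In the Ring1-pm control stage comparison it went from 0 to 1 with the filter at a mean TPM of 1. It went to 1, Eed, with the block, which called 2018 of 20279 genes there. By label, the Ring1A/B count between mutant and control EBs of 5 became 2 with only the groups compared and 2 to 4 with a library left out, and the Pcgf3/5 control stage count of 0 became 6 with only the groups compared. The causes were not tested.

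Differences near 0 changed sign when single libraries were left out. For the Ezh2 to Ezh1 log2 ratio the range was -0.10 to 0.28 for the Pcgf1 control stage comparison (negative without control EB replicate 1 or control ESC replicate 2 or 3), -0.23 to 0.014 for the mutant stage (positive without mutant EB replicate 4), and -0.17 to 0.12 between mutant and control ESCs of the Ring1-pm line. For single genes of the Pcgf1 line the control stage range was -0.37 to 0.028 for Ezh1 and -0.25 to 0.093 for Jarid2, the mutant stage range -0.14 to 0.14 for Ezh1 and -0.14 to 0.21 for Phf19, and the range for Ezh2 between mutant and control ESCs -0.019 to 0.042. Ezh1 in the mutant stage comparison was also positive with median-of-ratios scaling (0.0098) and quantile normalization (0.056).

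Over all genes, the replicate block of the Pcgf1 line raised the calls from 5138 to 9050 and from 3770 to 7573 in the control and mutant stage comparisons, from 132 to 1094 and from 402 to 2143 between mutant and control ESCs and EBs, and from 1 to 333 for the difference of mutant effects, and apart from the calls given with the results it changed none of the members'. Same-numbered libraries also correlated in the Ring1-pm (0.258 to 0.381), Pcgf2/4 (0.631 to 0.758) and Pcgf6 lines (0.390 to 0.759), with only 2 pairs each, and not in the Ring1A/B line (-0.0329 to -0.00105). In the Pcgf2/4 and Pcgf6 lines replicate 1 was named ESC and replicate 2 EB throughout. Their values therefore cannot tell pairing by number from the stage in the name. In the Pcgf3/5 line the correlations of same-numbered libraries ran from -0.790 to -0.0705, and with crossed numbers no member was called in either stage comparison. The -0.790 was for labelled mutant EBs and ESCs, where replicate 2 was named ESC in the EB group and EB in the ESC group.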
